A study of Mus musculus with 30 samples.

Results

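Myostatin, its activin receptors and the insulin-like growth factor (IGF) axis were followed through 10 genes chosen by name: Mstn, Acvr2a, Acvr2b, Fst, Fstl1, Igf1, Igf1r, Igfbp3, Igfbp4 and Igfbp5. Each symbol had 1 row in the deposited tables, and all 10 were among the 12030 genes tested, out of 56951 gene symbols. RNA was sequenced from the gastrocnemius muscle of wild-type male C57BL/6J mice, 14 in the LD group and 16 in the ADV group, 1 library per mouse. The mice were 14 weeks old when the schedules began and stayed on them for 64 weeks, each in a cage of its own with a running wheel, after 2 weeks of a light-dark cycle and 2 weeks of constant darkness that both groups went through. The LD group kept a fixed cycle with 12 h of light, and the ADV group had its cycle advanced by 8 h every 4 days. The plantaris was collected with the gastrocnemius, and tissue was taken over a span of daytime hours while both groups had the same light cycle.

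Skeletal muscle limits its own size through myostatin, a secreted ligand of the TGF-beta family that binds type II activin receptors and acts through SMAD2 and SMAD3. Follistatin binds myostatin and activins and keeps them from these receptors. IGF1 acts in the other direction, through its receptor tyrosine kinase, AKT and mTOR, and IGF binding proteins hold most IGF outside cells and decide how much of it reaches the receptor.

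Of the 10 genes, only Igf1r differed between the groups at a false discovery rate (FDR) under 0.05 (edgeR's quasi-likelihood test, adjusted over all genes tested), and it was lower in ADV mice. Over all genes tested 10.8% had such an FDR, 5.61% higher and 5.2% lower in the ADV group, so 1 of 10 was close to the share of genes in general. The point estimate was below 0 for 7 of the 10 genes, with a median log2 fold change of -0.13 beside 0.00 over all genes tested. An unadjusted p under 0.05 was found for 3 of the 10, Mstn, Acvr2a and Igf1r, against 30.1% of all genes tested. No gene of the 10 had both such an FDR and a fold change over 1.3, which 2.09% of all genes had. Depth was 18875468.5 to 28512674 reads on exons per library (each mate of a pair counting as part of 1 read), and the 10 genes were measured from a mean of 48.0 reads (Fst) to 16034 reads (Igfbp5) per library.

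Levels are given as FPKM, fragments per kilobase of exon and per unit of library total, and fold changes compare ADV with LD. The other genes lie, in GRCm39, at chr2:48704121-48793281 (Acvr2a, plus strand), chr9:119231510-119264061 (Acvr2b, plus), chr13:114589878-114595122 (Fst, minus), chr16:37597235-37656876 (Fstl1, plus), chr10:87694930-87772904 (Igf1, plus), chr11:7156086-7163897 (Igfbp3, minus), chr11:98932070-98945218 (Igfbp4, plus) and chr1:72897091-72914043 (Igfbp5, minus). In GENCODE vM39, a gene on the other strand covers part of the exon bases of Acvr2a (50.8%), Acvr2b (13.7%), Igf1r (10.003%), Fst (9.70%) and Igfbp3 (4.44% by the longer of 2 overlaps). These exon lengths differ from those of the counted rows, most for Acvr2b, with 10734 bases in GENCODE vM39 and 3154 in its row. The overlapped share of the counted bases was not determined.

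**Figure D1:**
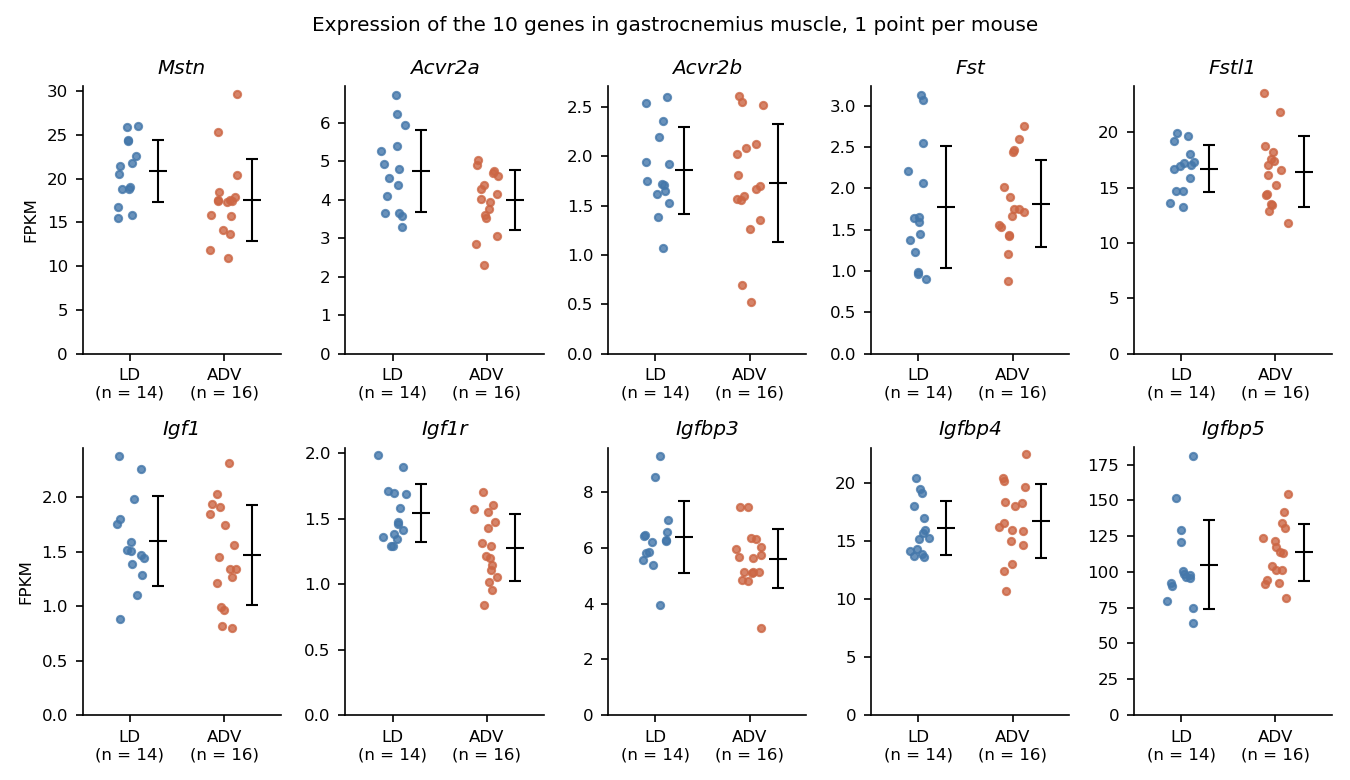
FPKM (vertical axis, from 0) of each of the 10 genes in every mouse, LD in blue and ADV in orange, with the mean and SD beside the points. The groups overlap in every panel, and for Igf1r 8 of the 16 ADV mice lie below the lowest LD mouse.

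Some libraries stood apart, and the groups differed in measures other than these genes. The share of a library's total that fell on exons averaged 91.17% (SD 0.12, n = 14) under LD and 91.53% (SD 0.37, n = 16) under ADV, with ADV mice 34 (92.67%) and 25 (92.04%) the highest of all. A clock score, the mean log2 level of 5 genes that are high with Bmal1 minus that of 7 genes that are low with it, was -1.49 ± 0.83 in LD mice and -0.03 ± 0.51 in ADV mice. Markers of skeletal muscle summed to between 55016 and 73236 FPKM in LD mice and between 55364 and 72731 FPKM in ADV mice, and no marker of the cell types listed was at 0 in all mice. In whole muscle, fewer cells of a type and less RNA per cell cannot be told apart.

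Mstn, which encodes myostatin (ENSMUST00000027269.7), occupies bases 53100799 to 53107238 of chromosome 1 (GRCm39, plus strand). In LD mice the lowest, median and highest values were 15.5, 20.97 and 26.02 FPKM, and in ADV mice they were 10.9, 17.5 and 29.7 FPKM. Most ADV mice were low, with 14 of the 16 below the LD median and 4 below the lowest LD mouse, but ADV mouse 22 was above every LD mouse. Means were 20.9 FPKM (SD 3.54, n = 14) under LD and 17.6 FPKM (SD 4.68, n = 16) under ADV. The log2 fold change of Mstn was -0.26 (standard error 0.12, 95% interval -0.50 to -0.03), and with an edgeR FDR of 0.124 it did not pass the test over all genes. Without ADV mouse 22 it was -0.33, with an edgeR FDR of 0.0361. Mstn was called only in this 1 of 30 fits with a single mouse removed, the FDR reaching 0.188 without LD mouse 33. Transcripts of Mstn are poor in G and C (38.1%), and with each library's trend with GC content removed the log2 fold change was -0.11 (edgeR FDR 0.620).

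The promoter windows of Mstn and Igf1r are shown because Mstn is the ligand that restrains growth and Igf1r the one member that passed the test. Each runs from 250 bases before the start site to 50 bases after it, in RefSeq's table for GRCm38.p6, an older build than that of the counts, as chr1:53061390-53061689 on the plus strand for Mstn and chr7:67952007-67952306 on the plus strand for Igf1r. Capitals mark CAGAC, a short SMAD-binding element, TATAAA and the GC box GGGCGG, searched on both strands.
Mstn: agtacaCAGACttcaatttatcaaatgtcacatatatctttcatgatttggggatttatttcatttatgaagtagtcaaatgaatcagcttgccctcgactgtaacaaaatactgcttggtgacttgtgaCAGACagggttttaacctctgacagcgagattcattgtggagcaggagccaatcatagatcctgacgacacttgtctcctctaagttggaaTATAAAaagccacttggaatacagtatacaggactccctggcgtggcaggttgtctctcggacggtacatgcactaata
Igf1r: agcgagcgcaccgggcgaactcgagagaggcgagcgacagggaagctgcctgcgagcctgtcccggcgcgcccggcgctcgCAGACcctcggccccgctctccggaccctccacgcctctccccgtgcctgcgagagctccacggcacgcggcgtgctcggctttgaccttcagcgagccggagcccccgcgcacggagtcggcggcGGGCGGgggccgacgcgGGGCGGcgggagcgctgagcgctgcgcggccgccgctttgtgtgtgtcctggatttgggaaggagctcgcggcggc
The Mstn window was 41.3% G and C and held 2 CAGAC elements and a TATAAA that begins 29 bases before the start site. The Igf1r window was 76.0% G and C, with 1 CAGAC element, 2 GC boxes and no TATAAA. Such letters are common, since 49.6% of 32851 windows hold CAGAC, 35.7% GGGCGG and 13.6% TATAAA. The clock E-box CACGTG, which 7.15% of the windows hold, was in none of the 9 member windows found, and Fst had no window in the table. The first bases of the counted Mstn transcript matched the start site of its window, while those of Igf1r in GENCODE vM39 were not in its window.

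Acvr2a and Acvr2b encode the type II receptors to which myostatin and activins bind, ACVR2B being the main one for myostatin. Acvr2a was at 3.28, 4.69 and 6.74 FPKM (lowest, median, highest) in LD mice and at 2.29, 4.09 and 5.02 FPKM in ADV mice. No ADV mouse reached the highest LD mice, and 12 of 16 were below the LD median. The log2 fold change of Acvr2a was -0.27 (standard error 0.11, 95% interval -0.49 to -0.05, edgeR FDR 0.0990). Orc4, on the other strand, covers 50.8% of the exon bases of Acvr2a in GENCODE vM39 and stood at -0.21 on the log2 scale (edgeR FDR 0.0844). The libraries were stranded, but the strand setting of the counting is not given in the sources used here. Counted reads of the shared part may therefore belong to either gene. In the fit that holds exon share as a term Acvr2a stood at -0.07 (edgeR FDR 0.825).

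Acvr2b was less abundant, at 1.07, 1.74 and 2.60 FPKM in LD mice and 0.53, 1.68 and 2.61 FPKM in ADV mice. The groups overlapped almost wholly, apart from ADV mice 34 and 25 at 0.53 and 0.70 FPKM, which also had the highest exon shares. For Acvr2b edgeR estimated -0.12 on the log2 scale (95% interval -0.44 to 0.20, edgeR FDR 0.641), and 0.01 without these 2 mice. Within mice, the ratio of Acvr2b to Acvr2a FPKM had a median of 0.395 in the LD group and 0.403 in the ADV group.

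Fst encodes follistatin, the extracellular inhibitor of myostatin and activins. It was at 0.90, 1.62 and 3.12 FPKM in LD mice and 0.88, 1.73 and 2.75 FPKM in ADV mice, from 23.5 to 79.5 reads per library, the fewest of the 10 genes. The groups overlapped over nearly the whole range, and the log2 fold change of Fst was 0.02 (95% interval -0.32 to 0.37, edgeR FDR 0.939), or from 0.803-fold to 1.29-fold. Fstl1, a secreted glycoprotein related to follistatin in sequence, was more abundant per length, with a mean of 16.7 FPKM (SD 2.12, n = 14) under LD and of 16.4 FPKM (SD 3.19, n = 16) under ADV. Its log2 fold change was -0.05 (95% interval -0.20 to 0.11, edgeR FDR 0.707), the narrowest interval of the 10.

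Igf1 encodes the ligand of the growth-promoting arm, made in muscle as well as in the liver. Its values were 0.88, 1.51 and 2.38 FPKM (lowest, median, highest) in LD mice and 0.80, 1.40 and 2.31 FPKM in ADV mice. The ranges nearly coincided, and 7 of 16 ADV mice were above the LD median. Igf1 had a log2 fold change of -0.14 (standard error 0.14, 95% interval -0.42 to 0.14, edgeR FDR 0.519). Its transcript is the poorest of the 10 in G and C (38.0%), and the estimate was 0.02 once the GC content trend was removed.

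Igf1r (ENSMUST00000005671.10), the receptor tyrosine kinase for IGF1, occupies bases 67602575 to 67883416 of chromosome 7 (GRCm39, plus strand). In LD mice it was at 1.29, 1.47 and 1.99 FPKM, and in ADV mice at 0.84, 1.25 and 1.70 FPKM. The groups overlapped in part, since 8 of the 16 ADV mice were below the lowest LD mouse while 5 were above the LD median. Means were 1.54 FPKM (SD 0.22, n = 14) under LD and 1.28 FPKM (SD 0.26, n = 16) under ADV, a log2 fold change of -0.29 (standard error 0.09, 95% interval -0.48 to -0.10, edgeR FDR 0.0402) or 0.819-fold. This call was close to its threshold. The FDR was 0.05 or more in 15 of 30 fits with a single mouse removed (up to 0.0693 without LD mouse 35). It was 0.0541 with a filter of 1 read and no FPKM minimum, 0.0878 by the Wilcoxon test and 0.0253 by DESeq2.

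The Igf1r difference moved with the exon share of the libraries. It was -0.23 on the log2 scale without ADV mice 25 and 34, the libraries of highest exon share (edgeR FDR 0.0995), and -0.09 in a fit that holds exon share as a term (edgeR FDR 0.676). Within the ADV group, Igf1r (log2 CPM) and exon share had a Pearson r of -0.62 (permutation p = 0.00566, 0.106 after adjustment over 130 relations) and a Spearman rho of -0.49 (permutation p = 0.0575), and r was -0.24 without the 2 mice farthest from the median exon share, so the size of r in this group rests on those mice. Within the LD group r was -0.53 (permutation p = 0.0488, adjusted 0.290), -0.47 without the 2 farthest, and rho was -0.34 (permutation p = 0.240). A fit with the clock score as a term gave -0.06 (edgeR FDR 0.874), one in which edgeR called 0 genes of 12030 and 1349 had an unadjusted p under 0.05. Igf1r and the clock score had an r of -0.52 (permutation p = 0.0562) and a rho of -0.65 (permutation p = 0.0135, adjusted 0.216) in LD mice, and an r of -0.31 (permutation p = 0.248) and a rho of -0.34 (permutation p = 0.193) in ADV mice. Exon share and clock score differ between the groups themselves, so their part in the lower Igf1r cannot be told apart from that of the schedule.

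**Figure D2:**
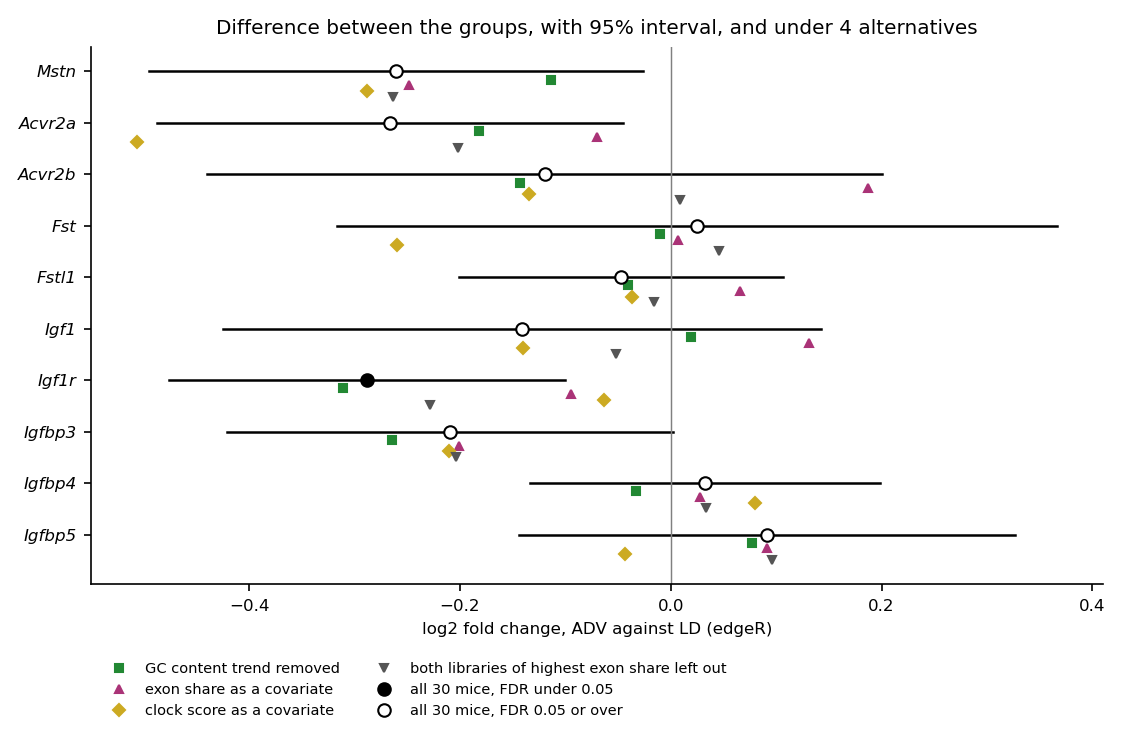
Log2 fold change of ADV against LD for each gene (edgeR, horizontal axis) with its 95% interval, filled where the FDR was under 0.05, and beneath it the estimate under 4 alternatives. Igf1r alone is filled, and its estimate moves from -0.29 to -0.09 with the exon share and to -0.06 with the clock score as a covariate.

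Igfbp3, Igfbp4 and Igfbp5 encode 3 of the proteins that bind IGF outside cells. IGFBP3 is the main carrier of IGF in blood, IGFBP4 mostly holds IGF back until a protease cleaves it, and IGFBP5 binds to matrix and can hold back or aid IGF. Igfbp5 was by far the most abundant of the 10 genes, at 64.3, 96.9 and 181 FPKM in LD mice and 81.7, 114 and 155 FPKM in ADV mice. Relative to the LD median 12 ADV values lay higher and 4 lower, all inside the LD range. For Igfbp5 the estimate was 0.09 on the log2 scale (95% interval -0.14 to 0.33, edgeR FDR 0.626).

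Igfbp4 was at 13.7, 15.5 and 20.5 FPKM in LD mice and 10.7, 16.4 and 22.5 FPKM in ADV mice. ADV mice spread over both ends of the LD range, with 3 below and 1 above it. The estimate for Igfbp4 was 0.03 on the log2 scale (95% interval -0.13 to 0.20, edgeR FDR 0.819). Igfbp3 was at 3.95, 6.28 and 9.30 FPKM in LD mice and 3.14, 5.65 and 7.46 FPKM in ADV mice, with 12 of 16 ADV mice below the LD median. Its log2 fold change was -0.21 (standard error 0.10, 95% interval -0.42 to 0.00, edgeR FDR 0.169), a difference that did not pass the test.

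Growth-restricting and growth-promoting genes were set side by side, by roles that are known for them and not by their values. The restricting group, Mstn, Acvr2a, Acvr2b and Igfbp4, had a median log2 fold change of -0.19, with none of the 4 called. The promoting group, Fst, Igf1 and Igf1r, had a median of -0.14, with 1 of 3 called, Igf1r, lower in ADV mice. With 10.8% of all genes called, and Igf1r called in only 15 of 30 fits with a mouse removed, these counts do not set the groups apart. The other 3, Fstl1, Igfbp3 and Igfbp5, whose action on growth depends on context, had a median of -0.05 and no call. Both medians were negative, and ratios within mice overlapped between the groups. The ratio of Mstn to Fst FPKM had a median of 12.2 (range 5.04 to 27.1) in LD mice and 10.8 (4.20 to 21.03) in ADV mice. Mstn over Igf1 had a median of 13.9 (7.83 to 27.7) in LD mice and 12.7 (5.63 to 21.8) in ADV mice, and Igfbp4 over Igf1 10.6 (6.34 to 17.2) and 11.01 (7.96 to 20.7).

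In FPKM, a level per length, the order in LD mice ran Igfbp5, Mstn, Fstl1, Igfbp4, Igfbp3, Acvr2a, Acvr2b, Fst, Igf1 and Igf1r. Igfbp5 was above Mstn in all 30 mice, Mstn above Fstl1 in 12 of 14 LD mice, and Acvr2a above Acvr2b in 14 of 14. Neighbours that did not separate were Fstl1 and Igfbp4 (Fstl1 higher in 7 of 14 LD mice), and the last 4 genes, where Acvr2b was above Fst in 8 of 14 LD mice and Igf1 above Igf1r in 8 of 14. By their means Igfbp4 came before Fstl1 and Fst before Acvr2b in the ADV group, but Igfbp4 was above Fstl1 in only 6 of 16 mice and Fst above Acvr2b in 8 of 16. The spread between mice was widest for Fst in LD mice (SD 41.5% of the mean) and for Acvr2b in ADV mice (34.7%), and narrowest for Fstl1 in LD mice (12.7%).

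Between mice of a schedule, most of the 10 genes varied without a clear relation to each other. Of 45 pairs, 32 had a positive Pearson r in LD mice and 23 in ADV mice, with medians of 0.17 and 0.07 (log2 CPM). Only Fst and Igfbp4 in ADV mice had an adjusted p under 0.05 by both measures over the 130 relations computed. There Pearson's r was 0.85 (n = 16, permutation p = 4e-05, adjusted 0.0052) and Spearman's rho 0.88 (permutation p = 1e-05, the smallest that 100000 permutations can give, adjusted 0.0013), and r was 0.81 without the 2 mice farthest from the median of Fst. In LD mice the same pair had an r of 0.09 (n = 14, permutation p = 0.747) and a rho of 0.04 (permutation p = 0.901). The difference between the groups in this relation was not tested. In LD mice Acvr2a and Fstl1 had an r of 0.77 (permutation p = 0.00105, adjusted 0.0594), just over the threshold, and a rho of 0.80 (adjusted 0.0455). Acvr2b and Fst had the same adjusted p for an r of 0.77, with a rho of 0.65 (adjusted 0.216). By rank, Fst and Igf1r were negatively related in LD mice (rho -0.79, adjusted 0.0455, r -0.71, adjusted 0.106) and Acvr2a and Igfbp5 positively (rho 0.79, adjusted 0.0455, r 0.62, adjusted 0.186). None of the 10 genes had an adjusted p under 0.05 with the clock score in either group.

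**Figure D3:**
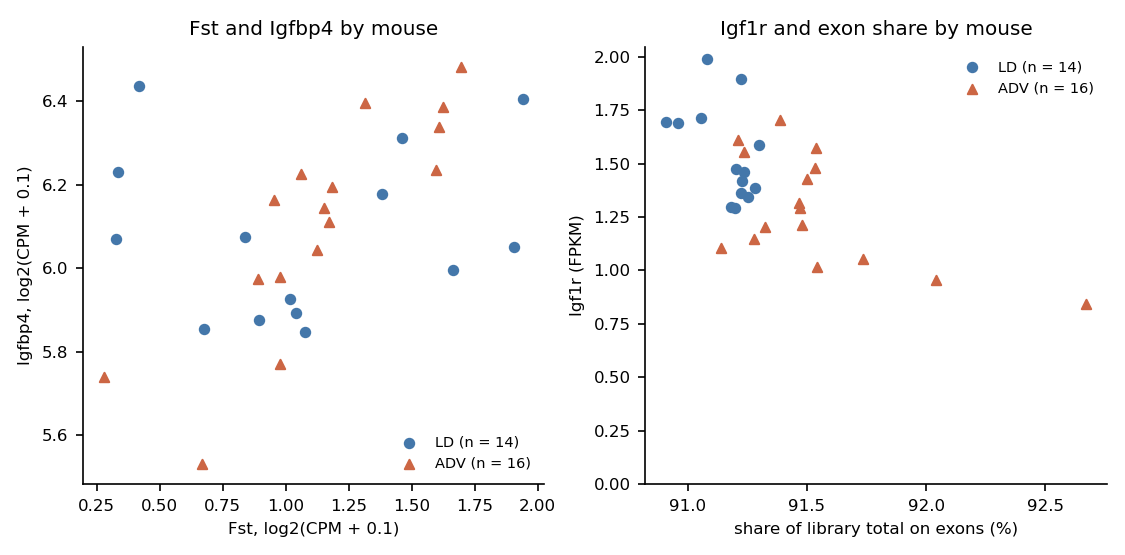
Left, Igfbp4 against Fst in log2(CPM + 0.1), 1 point per mouse, LD as circles and ADV as triangles: ADV mice follow a line (r = 0.85) and LD mice do not (r = 0.09). Right, Igf1r in FPKM against the share of the library total on exons in percent, where the 2 ADV mice at the right end, at 92.04% and 92.67%, have the lowest Igf1r.

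Other genes of both pathways were taken from 7 lists, with 105 genes of which 82 were tested. Of the 82, 7 rose and 5 fell under ADV at an FDR under 0.05 (edgeR), 14.6% against 10.8% of all genes, and their median log2 fold change was 0.01. Of these 12, 3 (Ltbp1, Bmpr1a and Eng) were also called with the GC content trend removed, where the count was 5, and 6 without ADV mice 25 and 34, where it was 7. The count was 0 with the exon share as a covariate and 0 with the clock score as a covariate. It was 15 by DESeq2 and 13 by the Wilcoxon test.

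Among 11 tested genes for ligands and their processing, 1 was lower, Ltbp1, which tethers latent TGF-beta to the matrix (log2 fold change -0.21, edgeR FDR 0.0239), and none was higher. Furin, the protease that cuts the myostatin precursor and the most abundant of the list, stood at 0.11 on the log2 scale (edgeR FDR 0.0958). Furin was called by limma, by the Wilcoxon test and by edgeR with library size alone. None of 7 antagonists was called by edgeR, of which Tcap, a titin-binding protein that can bind myostatin, was the most abundant (log2 fold change -0.04, edgeR FDR 0.784). The 7 log2 fold changes ran from -0.34 to 0.41, with a median of -0.04. Fstl3, the highest at 0.41, had an edgeR FDR of 0.0570 and was called by DESeq2 and by the Wilcoxon test. Among 10 further receptors, Eng and Acvrl1, which form the endothelial receptor for BMP9 and BMP10, were higher, and Bmpr1a, a type I BMP receptor, was lower. Eng averaged 14.8 FPKM (SD 2.20, n = 14) under LD and 19.5 FPKM (SD 3.39, n = 16) under ADV, a log2 fold change of 0.38 (edgeR FDR 0.00537), and it was called whichever of the 30 mice was removed. The log2 fold change was 0.26 for Acvrl1 (edgeR FDR 0.0448, under 0.05 in 11 of the 30 fits, and 0.165 with the trend in GC removed) and -0.28 for Bmpr1a (edgeR FDR 0.0122).

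Of 13 SMADs and regulators tested, 2 were higher, Smad6 and Smad7, the inhibitory SMADs, with log2 fold changes of 0.45 (edgeR FDR 0.0350) and 0.38 (edgeR FDR 0.0260). Once the trend with GC was removed, they stood at 0.33 (edgeR FDR 0.119) and 0.29 (edgeR FDR 0.103). Smad6 was called in 19 of 30 fits with a single mouse removed and Smad7 in all 30. Smad3, the most abundant of the list and a carrier of the myostatin signal, stood at -0.10 on the log2 scale (edgeR FDR 0.568). Of 10 endothelial markers, 2 were higher beside Eng and Acvrl1, Pecam1 (log2 fold change 0.16) and Emcn (0.27), and the other 8 were not called. Among those 8, named after their values were seen, Vwf (-0.17, 95% interval -0.33 to -0.01), Esam (-0.02) and Tek (-0.01) lay below 0. The 10 markers summed to 86.7 to 120 FPKM in LD mice and 100 to 131 FPKM in ADV mice. The part of endothelial cells in these differences was not tested.

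On the IGF side, 1 of 7 tested ligands, binding proteins and proteases was higher, Igf2, a second IGF ligand, with means of 3.02 FPKM (SD 0.49, n = 14) under LD and 3.6999 FPKM (SD 0.58, n = 16) under ADV (log2 fold change 0.27, edgeR FDR 0.0347). It was called in 24 of 30 fits with a single mouse removed, and with the trend in GC removed it stood at 0.17 (edgeR FDR 0.249). Igfbp7 was the most abundant of that list, at 0.09 on the log2 scale (edgeR FDR 0.395). Of 12 receptors and adaptors, 1 was lower, the growth hormone receptor gene Ghr, through which growth hormone raises Igf1 (log2 fold change -0.20, edgeR FDR 0.0167). Ghr was also the most abundant of its list, and with the trend in GC removed it stood at -0.11 (edgeR FDR 0.150). Among 22 genes of PI3K, AKT and mTOR, Akt1 and Akt1s1 were higher, by 0.19 on the log2 scale each, and Rps6kb1, which encodes the S6 kinase, and Deptor, an inhibitor of mTOR, were lower, with log2 fold changes of -0.18 and -0.23 (edgeR FDRs 0.0196, 0.0267, 0.0147 and 0.0429). Once the trend with GC was removed, none of these 4 had an FDR under 0.05. Deptor was called in 14 of 30 fits with a single mouse removed. It was not called with library size alone, by limma or by the Wilcoxon test. Eif4ebp2, the most abundant of the list, stood at -0.15 on the log2 scale (edgeR FDR 0.0955).

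**Figure D4:**
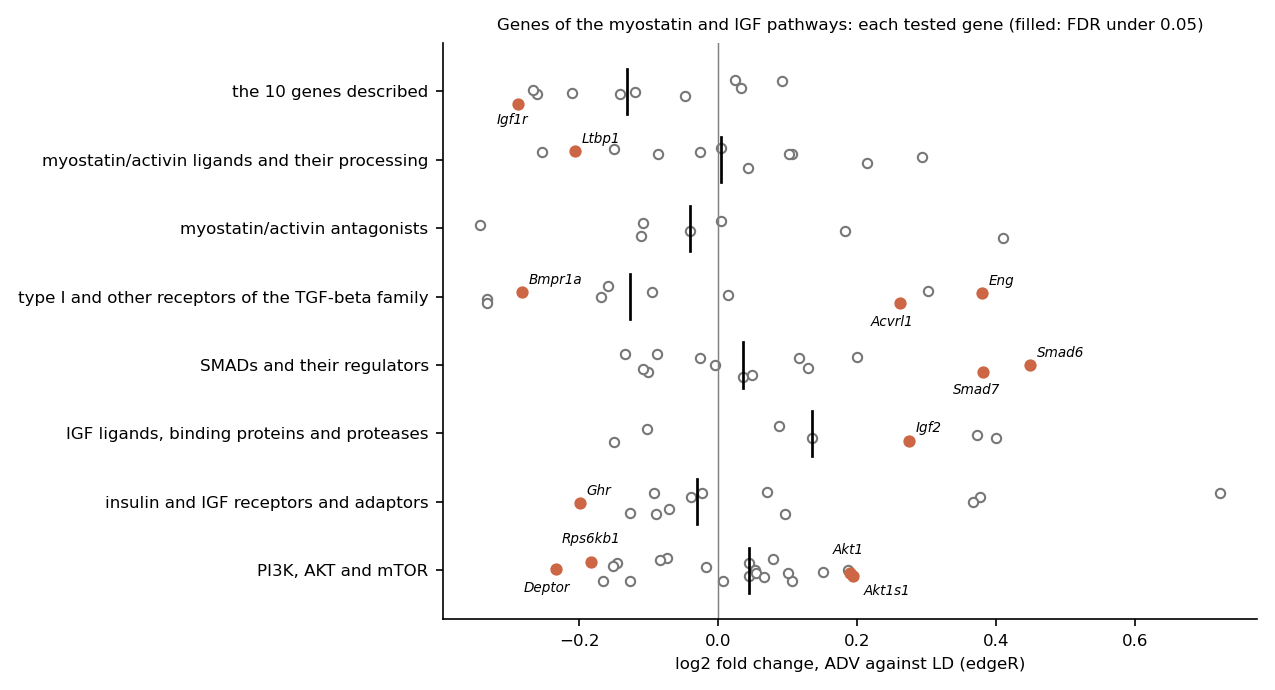
Log2 fold change of ADV against LD (edgeR, horizontal axis) of each tested gene in the 7 pathway lists and of the 10 genes described, with genes of FDR under 0.05 filled and named and the median of each row as a black bar. The filled genes lie on both sides of 0, 7 higher and 5 lower in the lists.

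Other cells of the muscle were read from marker lists. Calls in these lists, and in the endothelial list above, stand beside 10.8% of all genes tested with an FDR under 0.05. Of 10 fibroblast markers, 1 was lower, Pdgfra (log2 fold change -0.24, edgeR FDR 0.0194). The 10 had a median of -0.07, and Ly6a (0.06), Gsn (0.04) and Pi16 (0.02) lay above 0. The list summed to 696 to 1072 FPKM in LD mice and 671 to 1000 FPKM in ADV mice, with Gsn the most abundant. None of 9 leukocyte markers tested was called, and Lyz2, the most abundant, stood at -0.29 on the log2 scale (edgeR FDR 0.134). Of 8 adipocyte markers, 1 was higher, Fabp4 (log2 fold change 0.36, edgeR FDR 0.0231). The 8 ran from -0.08 (Plin4) to 1.57 (Lep, edgeR FDR 0.0538), with a median of 0.44, and Retn (0.01) and Cfd (0.04) were near 0. Of 7 Schwann cell markers, 1 was higher, Ncmap (0.92, edgeR FDR 0.0157), with Mbp the most abundant. No marker of satellite cells, smooth muscle, fast fibers, slow fibers or skeletal muscle in general was called, of 4, 8, 10, 8 and 8 tested. All 8 slow fiber markers nevertheless had positive log2 fold changes, between 0.23 and 0.66 with a median of 0.48. The FPKM sum of the slow fiber list varied widely among mice of each group. Its lowest, median and highest values were 52.9, 608 and 1073 under LD, and 265, 833 and 2101 under ADV. The most abundant were Spry1 in the satellite cell list, Des in the smooth muscle list, Tnnt3 in the fast fiber and skeletal muscle lists and Myl3 in the slow fiber list. The part of these cells in the values of the 10 genes was not tested.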

How the data were processed

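Paired-end reads were cleaned of adaptors by the authors (Trimmomatic) and aligned to GRCm39 by STAR (2.7.10a in the submitters' processing notes), removed reads of mapping quality under 10 and counted reads on exons of UCSC known canonical transcripts with Homer (4.11). The authors deposited these estimated counts without normalization, each mate counting as 0.5 read, and FPKM values, scaled to exon length and Homer's library total, for the same 57186 rows. Here 1 row was kept per symbol (the longest with a mean over 20 reads), and a gene was tested where its mean exceeded 20 reads and its average FPKM 0.5. Counts were rounded and compared with edgeR 4.0.16 in R 4.3.3 (quasi-likelihood F test, TMM, Benjamini-Hochberg over all genes tested). A standard error is the log2 fold change divided by the square root of F. Alternatives were DESeq2 1.42.0, limma 3.58.1, the Wilcoxon rank-sum test by permutation, other size factors, filters and covariates, the label number as a block, and each library left out. Leaving out ADV mice 25 and 34 was added after the data were seen, as was the relation of each gene to exon share.

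The members and lists were chosen with earlier results of these data known. All members were named, with the genes of each pathway list that had an FDR under 0.05 (at most 6) and its most abundant gene, and likewise for marker lists (at most 3). Orc4, Fstl3, Pi16, Ly6a, Plin4, Lep, Retn and Cfd were named after their values were seen. The fitting steps were tested on simulated data with known changes. Depth limits the precision of genes with few reads, such as Fst. No 2 libraries of a group agree within sampling noise (smallest chi-square per degree of freedom 10.6 in each group). The source of each library is 1 mouse.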

Additional observations from a re-analysis of the deposited data

How the results depend on the processing

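Over 15 alternatives that change the test, the normalization, the filter, a covariate or the libraries, the 10 log2 fold changes kept their direction and their side of an FDR of 0.05 in 135 of 150 cases. The exceptions follow, and the cause was not tested. Igf1r lost its call at a log2 fold change of -0.29 with a mean over 1 read and no FPKM minimum (more genes tested), -0.26 over the 28 libraries with shared label numbers without a block, -0.0637 with the clock score, -0.0942 with the exon share, -0.23 without the 2 libraries of highest exon share and -0.21 by the Wilcoxon test, so that 0 of the 10 genes were called there, as with a fold change over 1.3 required. The direction reversed, with no call, for Acvr2b (0.19), Fstl1 (0.0660) and Igf1 (0.13) with the exon share, for Acvr2b (0.00912) without the 2 libraries of highest exon share, for Fst (-0.0106), Igf1 (0.0188) and Igfbp4 (-0.0328) with the GC content trend removed, and for Fst (-0.26) and Igfbp5 (-0.0438) with the clock score.

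Of all genes, 1301 were called, 252 with a fold change over 1.3, 602 with the GC content trend removed, 745 without the 2 libraries of highest exon share, 45 with the exon share and 0 with the clock score as a covariate. With library size alone 62.4% of the calls were higher in the ADV group, against 51.9% with TMM. Leaving out 1 mouse at a time gave 835 (without LD mouse 28) to 1542 calls, with 0 to 1 of the 10 genes among them. The log2 fold change then ranged from -0.33 to -0.22 for Mstn (called in 1 of 30 fits), from -0.32 to -0.26 for Igf1r (15 of 30) and from -0.0243 to 0.11 for Fst. The labels do not say what the label numbers stand for, so mice of the same number may or may not belong together. Of 14 same-numbered pairs, 6 had deviations correlated over 0.1 (range -0.26 to 0.43, median 0.01), and 3 of 14 LD libraries were closest to their own number. With the replicate block edgeR called 494 genes, against 616 over the same 28 libraries without it, and Igf1r had a log2 fold change of -0.27 (FDR 0.0400). Of the pathway genes 3 were called with the block and 7 without it. Genes with few reads, such as Fst, are limited by depth.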

Other observations

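The genes whose levels followed Mstn and Igf1r most closely between mice were looked up as a description, by Pearson's r of log2 CPM over 30 mice after group means were subtracted. For Mstn they were Sub1 (r = 0.84), a coactivator of transcription, Spryd7 (0.82) and Adi1 (0.81), an enzyme of methionine salvage. For Igf1r they were Med13l (0.80), a Mediator kinase module subunit, Rbm33 (0.79) and Foxk1 (0.78), a forkhead repressor active in muscle. Of these 6, Spryd7 (log2 fold change -0.19, edgeR FDR 0.0218) and Rbm33 (-0.23, edgeR FDR 0.0404) were lower in ADV mice, and the other 4 did not pass the test.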
